A study of Mus musculus with 8 samples.

Results

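The interleukin-2 (IL-2) receptor and its STAT5 pathway were examined as 10 genes of the deposited count table, matched by gene symbol: Il2ra, Il2rb and Il2rg, Jak1 and Jak3, Stat5a and Stat5b, and Socs1, Socs3 and Cish. The list was drawn up with earlier results of these data known. All 10 were found among the 27594 genes of the table, and all 10 passed the filter on low counts that left 14540 genes for testing. The 8 RNA-seq libraries came from C57BL/6 mice aged 6 to 8 weeks. Treg cells of spleen and peripheral lymph nodes had been sorted as CD4+ YFP+ cells, with gates that included CD44low for resting (rTreg) and CD44high for activated (aTreg) cells. WT libraries were from Foxp3-YFP-Cre mice and Foxp1-deficient (cKO) libraries from Foxp1fl/fl Foxp3-YFP-Cre mice, with 2 libraries in each of the 4 groups. The Cre allele, made from the Foxp3 locus with YFP, was therefore carried by the controls as well, and deletion was restricted to cells that express Foxp3. CD25, the protein of Il2ra, was not a gate in the sort. Nothing in the labels says whether a replicate was 1 animal or a pool, so p-values measure the spread between these libraries only.

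Interleukin-2 is made mainly by activated conventional T cells, and Treg cells depend on taking it up. The receptor is built of an alpha chain (CD25, Il2ra) that raises affinity without signalling, a beta chain (Il2rb) shared with the IL-15 receptor, and the common gamma chain (Il2rg) shared with the receptors for IL-4, IL-7, IL-9, IL-15 and IL-21. The kinase JAK1 sits on the beta chain and JAK3 on the gamma chain, and together they phosphorylate STAT5A and STAT5B, which enter the nucleus and activate genes that include Il2ra, Foxp3, Cish and Socs family members. CIS (Cish), SOCS1 and SOCS3 are feedback inhibitors of cytokine signalling.

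The libraries held 6373170 to 15268623 assigned reads each, with a median of 12327710, and the 10 genes drew between 658 reads (Socs1 in cKO rTreg replicate 1) and 14514 reads (Jak1 in WT rTreg replicate 2). A floor of 3 reads corresponds to 0.196 to 0.471 CPM (counts scaled to a fixed library size), which covers counting error only. CPM values are scaled by TMM library sizes, and a statement on a difference rests on the quasi-likelihood test of edgeR, with replicate number as a block and p adjusted by Benjamini-Hochberg over all 14540 genes. Foxp1 itself, counted over the whole gene, was 353.5 and 383.8 CPM in WT rTreg cells and 342.0 and 337.8 CPM in cKO rTreg cells, a log2 difference of -0.12 (SE 0.0938, adjusted p = 0.46). It was 234.5 and 230.3 CPM in WT aTreg cells and 126.0 and 101.6 CPM in cKO aTreg cells (log2 -1.03, adjusted p = 0.00194). The whole-gene count thus follows the genotype labels in aTreg cells but does not check them in rTreg cells. Reads were not resolved by exon here, and the cause of the small rTreg difference was not tested. The paper reports full loss of Foxp1 RNA and protein in cKO Treg cells that were not split by subset. The gate gene Cd44 followed the subset labels in both genotypes, being 5.33-fold higher in WT aTreg than in WT rTreg cells and 6.2-fold higher in cKO aTreg than in cKO rTreg cells. Within the rTreg gate it also moved with genotype, being lower in cKO cells (log2 -0.43, adjusted p = 0.0339). Replicate 1 and replicate 2 differed in sex in all 4 groups, with Y-linked reads only in replicate 1 and Xist at 3 reads or fewer there. Il2rg is X-linked, and its replicate 2 level lay between 0.04 below and 0.11 above its replicate 1 level on the log2 scale in the 4 groups.

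Marker lists for other cell types were low beside the Treg and CD4 T cell markers, which summed to 2061 to 3365 CPM with all 5 detected. That sum hides opposite moves with genotype in rTreg cells. There 2 of the 5 were called higher in cKO cells (Cd4 and Cd3e) and 2 lower (Ikzf2 and Foxp3), against 6.57% and 5.45% of all genes. Mean Cd4 was 610 CPM in WT and 886 in cKO rTreg cells, and mean Ikzf2 473 and 342 CPM. The 5 granulocyte markers summed to 0.368 and 0 CPM in WT rTreg and 11.8 and 5.20 in cKO rTreg cells, so they moved with genotype there. In aTreg cells they summed to 2.63 and 1.92 CPM in WT and 25.5 and 2.88 in cKO libraries. The aTreg difference thus came mostly from cKO replicate 1, with replicate 2 close to the WT libraries. Of the 4 tested, 3 were called higher in cKO rTreg and 1 in cKO aTreg cells, against 6.57% and 4.11% of all genes. The 7 B cell markers summed to 8.29 to 11 CPM in rTreg and 33.6 to 39.1 CPM in aTreg libraries, with Ebf1 among those at or under the floor in every library. The 3 plasma cell markers summed to 2.39 and 0.471 CPM in WT rTreg, 8.77 and 5.34 in cKO rTreg, 3.29 and 2.88 in WT aTreg, and 12.8 and 3.67 in cKO aTreg cells. Myeloid, CD8 T and NK cell, and erythroid markers summed to at most 10.5, 19.4 and 3.35 CPM, with Hbb-bt among the erythroid markers at or under the floor in every library. Their part in the differences below was not tested.

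The genes lie at separate loci except the STAT5 pair. In GRCm38 with GENCODE M21 exons, Stat5b (chr11:100780731-100850724, minus strand) and Stat5a (chr11:100859351-100885169, plus strand) stand head to head with 8626 bases between them. Of all 100-base stretches of their annotated transcripts, 3.44% for Stat5a and 4.79% for Stat5b also occurred in the other gene, so reads there could not be told apart. Il2ra lies at chr2:11642807-11693193 (plus), Il2rb at chr15:78479256-78495271 (minus) and Il2rg at chrX:101264378-101268255 (minus). Jak1 lies at chr4:101152367-101265282 (minus), Jak3 at chr8:71676296-71690575 (plus), Socs1 at chr16:10782240-10785536 (minus), Socs3 at chr11:117966079-117970047 (minus) and Cish at chr9:107296026-107302784 (plus). Counts ran over whole genes of the authors' gene model. The lengths implied by the authors' FPKM values (levels per length) equal these GENCODE exon bases except for Il2rb and Socs1. They are 2785 against 4287 bases for Il2rb and 1220 against 2908 for Socs1, so the exons counted for these genes may differ. Exons shared with another annotated gene made up 30.5% of the exon bases of Il2rg (with Gm20489), 11.5% of Cish and 7.55% of Jak3 (with Insl3), and reads there may have been left out of their counts, since the counting mode is not given in the sources used here.

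Sequence before the RefSeq starts was searched because STAT5 and Foxp1 both bind DNA directly and the pathway is known for feedback through STAT sites. RefSeq start sites of GRCm38.p6 were available for 9 of the 10 genes, with 11 starts in all (Il2rb was not among them). The 250 bases before each start were read for the palindromic STAT site TTCNNNGAA, which covers both strands, and for the forkhead core GTAAACA or its reverse complement TGTTTAC. Among these 11 windows that of Socs3 held the only STAT site, at 154 bases before the RefSeq start, and 0 held the forkhead core. A RefSeq start can lie inside the GENCODE span of its gene, and windows of Jak1, Jak3, Stat5a, Stat5b, Socs3 and Cish overlapped GENCODE exons by 59 to 250 bases, the Cish window over its whole length. The Socs3 window lies within the Socs3 span given above, downstream of the outermost GENCODE start, with 77 of its 250 bases in an exon and the STAT site outside it. Over all 32841 RefSeq starts searched, 7.02% held the STAT site and 3.17% the forkhead core in a window of this length. The Socs3 window (chr11:117969367-117969616, minus strand) is shown because Socs3 had the largest subset difference of the 10 genes, and the Il2ra window (chr2:11642542-11642791, plus strand) because Il2ra fell with it and carries no match. Both are written 5′ to 3′ with the STAT site in capitals.
Socs3: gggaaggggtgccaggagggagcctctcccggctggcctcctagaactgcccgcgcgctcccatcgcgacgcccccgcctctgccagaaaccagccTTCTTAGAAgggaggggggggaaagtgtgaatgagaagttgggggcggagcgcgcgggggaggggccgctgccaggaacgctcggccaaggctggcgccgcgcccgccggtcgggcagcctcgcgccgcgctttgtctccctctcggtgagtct
Il2ra: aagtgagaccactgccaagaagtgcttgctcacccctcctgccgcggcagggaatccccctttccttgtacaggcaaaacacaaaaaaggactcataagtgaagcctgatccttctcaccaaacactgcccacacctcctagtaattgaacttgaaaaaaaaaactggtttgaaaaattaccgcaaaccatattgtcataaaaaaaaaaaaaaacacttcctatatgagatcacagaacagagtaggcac
A match is a description of letters and was not measured as bound, and the absence of a match covers these 250 bases only.

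Per length, the receptor chains and kinases were among the more abundant transcripts of these cells. Over the 8 libraries the authors' FPKM values ran from 199 to 390 for Il2rb, 90.7 to 174 for Jak3, 104 to 154 for Jak1, 82.7 to 169 for Socs3 and 60.3 to 110 for Il2ra. Stat5b ran from 82.5 to 109 FPKM, Socs1 from 75.5 to 104 and Il2rg from 73.7 to 88.5. Stat5a (20.3 to 30.7 FPKM) and Cish (18.8 to 25.5 FPKM) were the lowest of the 10 in every group mean. By these values Il2rb stood above the 9 others in all 8 libraries, while the ranges of Jak1, Jak3, Socs3, Stat5b and Il2ra overlapped. The FPKM values imply a length of 2785 bases for Il2rb and 1220 for Socs1, against 4287 and 2908 GENCODE M21 exon bases. A longer length would lower both genes, so the place of Il2rb above the others rests on the authors' gene length. Between its lowest and highest library each gene spanned only 1.23-fold (Il2rg) to 2.07-fold (Socs3) on the CPM scale.

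**Figure D1:**
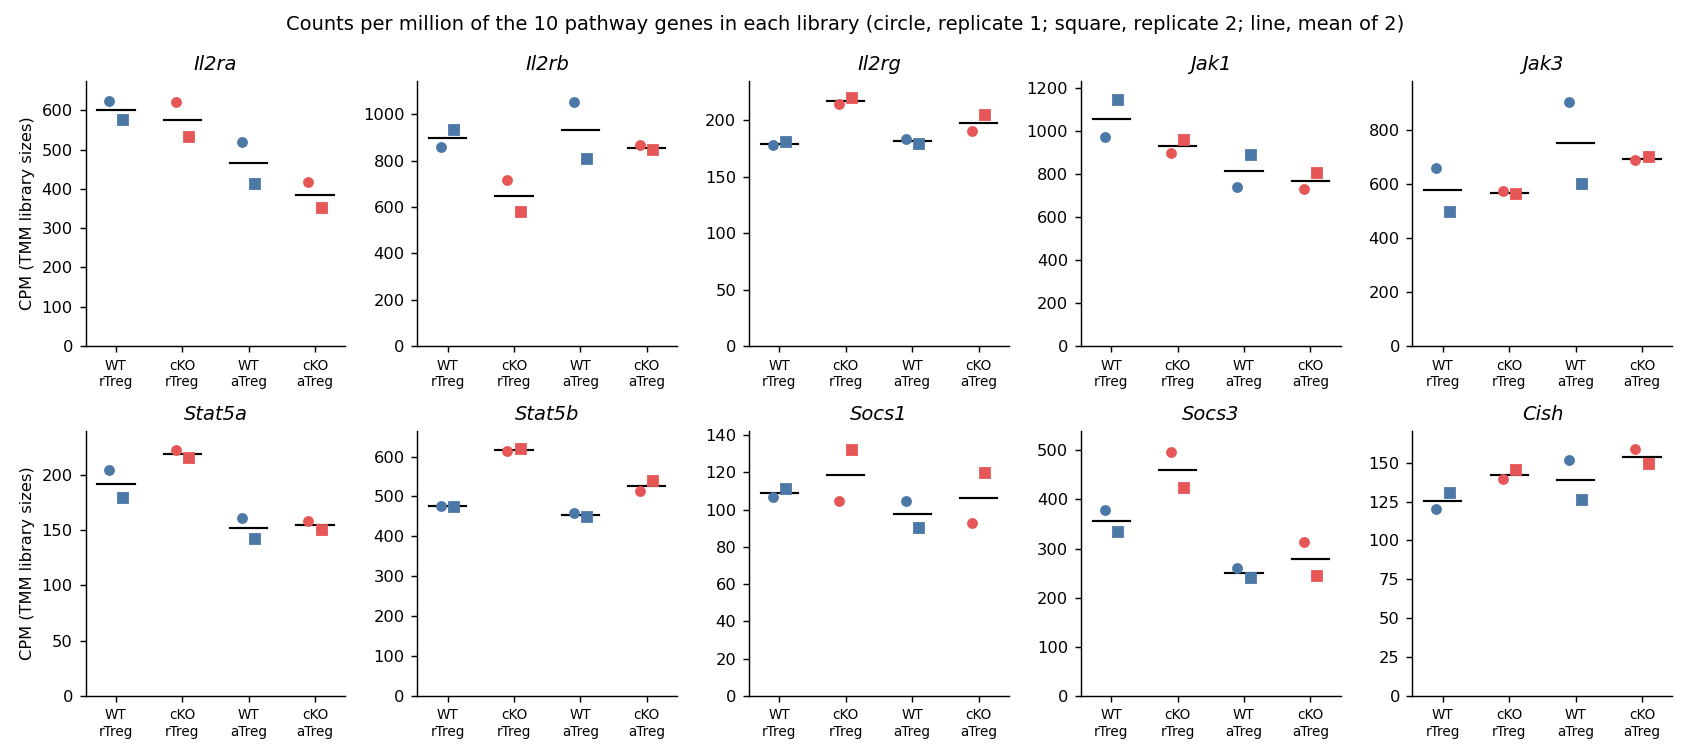
CPM (linear y axis from 0, TMM library sizes) of the 10 genes in the 4 groups on the x axis, with a circle for replicate 1, a square for replicate 2, blue for WT, red for cKO and a line for the mean of the 2. Stat5b and Il2rg are higher in both cKO rTreg libraries than in both WT rTreg libraries, Il2rb is lower there, and Il2ra, Jak1, Stat5a and Socs3 are lower in aTreg than in rTreg libraries of the same genotype.

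Foxp1 deficiency in rTreg cells went with higher Stat5b, Socs3 and Il2rg and lower Il2rb. Of the 10 genes, 3 were called higher and 1 lower at an adjusted p under 0.05, where 6.57% of all genes tested were called higher and 5.45% lower. The median log2 change of the 10 was 0.15, beside 0.0029 over all genes. The comparison of genotypes in aTreg cells called Stat5b higher and Il2ra lower, 1 gene each way, against 4.11% and 2.77% of all genes tested, with a median of 0.073 beside 0.0018. By subset, 4 genes (Il2ra, Jak1, Stat5a and Socs3) were lower and 0 higher in WT aTreg than in WT rTreg cells, against 13.6% lower and 18.2% higher over all genes, and the median was -0.12 beside -0.0046. The count of 0 higher stood at 1 (Jak3) at an unadjusted p under 0.05 and at 0 with limma-voom and DESeq2. In cKO cells 5 genes were lower in aTreg cells (the same 4 and Stat5b) and 1, Il2rb, was higher, against 18.2% and 21.9% of all genes, with a median of -0.20 beside -0.018.

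These differences were small. With the study's added fold requirement of 1.5 between genotypes and 2 between subsets, 0 of the 10 genes remained in any of the 4 comparisons, whereas 5.6% of all genes tested remained for genotype in rTreg cells, 4.03% for genotype in aTreg cells, 12.3% for subset in WT cells and 15.7% for subset in cKO cells. Without the replicate block, the genotype calls of all 6 gene and subset pairs missed the threshold, as did all 4 subset calls in WT cells, while Il2ra, Stat5a and Socs3 stayed lower in cKO aTreg cells. The 4 comparisons share libraries by pairs, so their counts are not independent of each other. In bulk libraries fewer cells of a type and less RNA per cell cannot be told apart. The subsets were sorted populations, so a rise or fall between them names a difference and not a change followed over time.

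**Figure D2:**
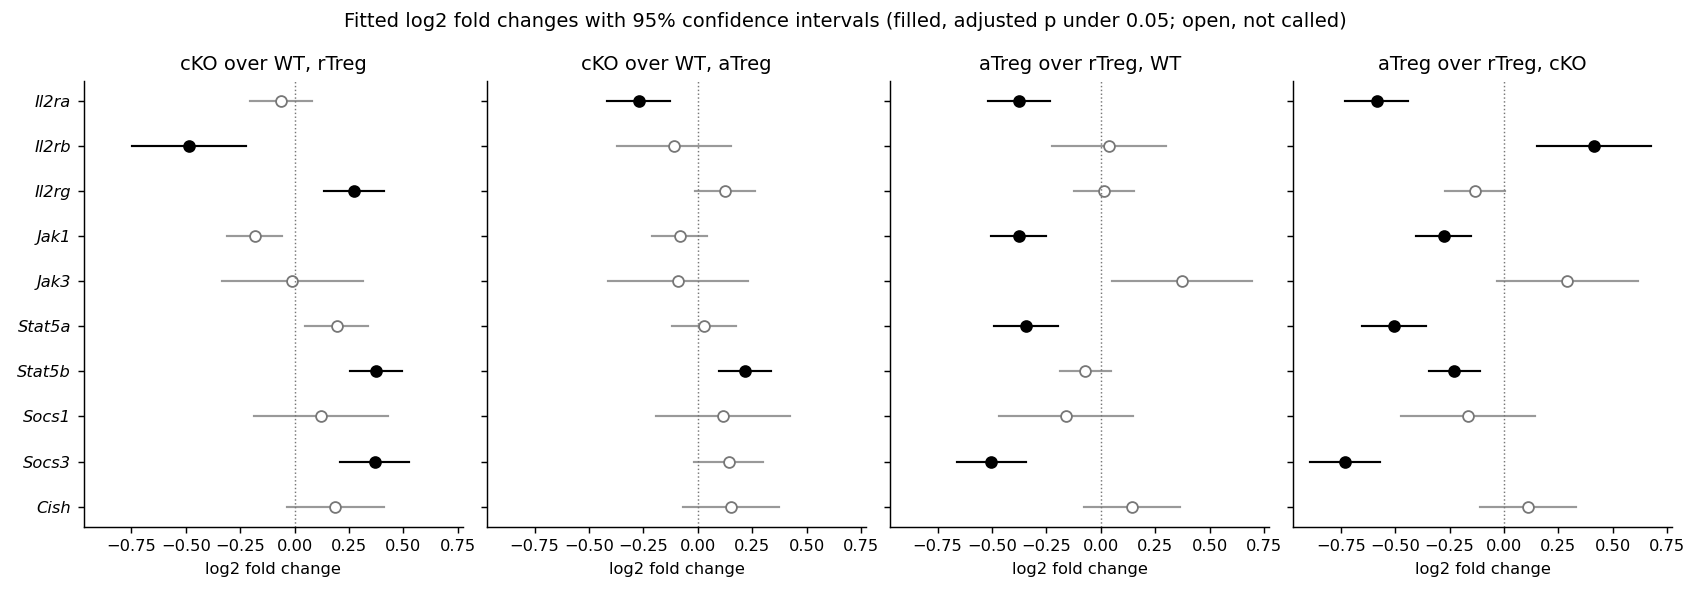
Fitted log2 fold changes (x axis) with 95% confidence intervals for the 10 genes (y axis) in the 4 comparisons, filled where the adjusted p is under 0.05. The intervals of Il2ra, Jak1, Stat5a and Socs3 lie below 0 in both subset comparisons, while Socs1, Jak3 and Cish are open throughout.

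Il2ra, the alpha chain, was lower in aTreg than in rTreg cells of both genotypes. It measured 622.6 and 576.3 CPM in WT rTreg cells, 620.5 and 531.8 in cKO rTreg, 518.0 and 411.7 in WT aTreg, and 418.4 and 350.3 in cKO aTreg cells. All 4 aTreg libraries lay below all 4 rTreg libraries. The log2 difference between subsets was -0.38 in WT cells (SE 0.0619, adjusted p = 0.00293), or 1.30-fold lower, and -0.59 in cKO cells (SE 0.0621, adjusted p = 0.000251), or 1.5-fold lower. Between genotypes the rTreg libraries overlapped (log2 -0.06, 95% interval -0.21 to 0.08, adjusted p = 0.565). In aTreg cells the deficient libraries were lower within each replicate pair, by 0.31 and 0.23 on the log2 scale, although the 2 groups overlapped (log2 -0.27, SE 0.0619, adjusted p = 0.0429). That last call was lost without any of the 4 aTreg libraries (adjusted p = 0.18 and 0.0748 without WT replicates 1 and 2, 0.126 and 0.27 without cKO replicates 1 and 2) and without either cKO rTreg library (0.0833 and 0.086).

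Il2rb, the beta chain, had its lowest levels in cKO rTreg cells. Its values were 860.4 and 934.3 CPM in WT rTreg, 715.8 and 577.2 in cKO rTreg, 1055.1 and 805.7 in WT aTreg, and 866.3 and 845.9 in cKO aTreg cells. The cKO rTreg libraries were the lowest 2 of the 8. The genotype difference in rTreg cells was -0.49 on the log2 scale (SE 0.113, adjusted p = 0.0334), a level 1.40-fold lower, with pair differences of -0.27 and -0.69. It missed the threshold without WT rTreg replicate 2 (-0.31, adjusted p = 0.198), cKO rTreg replicate 1 (-0.60, 0.0812) or cKO rTreg replicate 2 (-0.38, 0.267). In aTreg cells the genotypes overlapped (log2 -0.11, 95% interval -0.37 to 0.15, adjusted p = 0.616). Il2rb rose from rTreg to aTreg in cKO cells (log2 0.41, SE 0.113, adjusted p = 0.0217, 1.33-fold), a call lost without cKO rTreg replicate 2 (0.31, adjusted p = 0.18) or cKO aTreg replicate 2 (0.33, adjusted p = 0.152). In WT cells the subset difference was 0.04 (95% interval -0.22 to 0.30, adjusted p = 0.832).

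Il2rg, the common gamma chain, differed little between libraries. It was 178.2 and 180.6 CPM in WT rTreg, 214.4 and 219.5 in cKO rTreg, 183.6 and 179.1 in WT aTreg, and 190.3 and 205.0 in cKO aTreg cells. Both cKO rTreg libraries exceeded every other library. The rTreg genotype difference was 0.27 (SE 0.0597, adjusted p = 0.0263), or 1.21-fold higher, with pair differences of 0.27 and 0.28. The log2 value stayed between 0.26 and 0.27 when any of the 4 rTreg libraries was left out, but the adjusted p then rose to between 0.129 (without cKO rTreg replicate 1) and 0.19 (without cKO rTreg replicate 2), with 0.143 and 0.185 without WT rTreg replicates 1 and 2. In aTreg cells the difference was 0.12 (95% interval -0.01 to 0.26, adjusted p = 0.258), and no subset difference was called (0.01 in WT cells, 95% interval -0.12 to 0.15, and -0.13 in cKO cells, -0.27 to 0.0037).

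Because the chains moved differently, their ratio within a library shifted between groups. The FPKM ratio of Il2ra to Il2rb was 0.353 and 0.301 in WT rTreg, 0.423 and 0.449 in cKO rTreg, 0.239 and 0.249 in WT aTreg, and 0.236 and 0.202 in cKO aTreg libraries. It was highest in the 2 cKO rTreg libraries and lower in all 4 aTreg libraries than in all 4 rTreg libraries. The ratio of Il2rb to Il2rg averaged 4.29 ± 0.209 (SD, n = 2) in WT rTreg cells and 2.56 ± 0.43 in cKO rTreg cells, and 4.39 ± 0.756 and 3.72 ± 0.258 in WT and cKO aTreg cells. No test was run on the ratios, and with 2 libraries against 2 no exact permutation test could reach 0.05. The level of a ratio also depends on the gene length behind each FPKM value, which is in doubt for Il2rb.

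**Figure D3:**
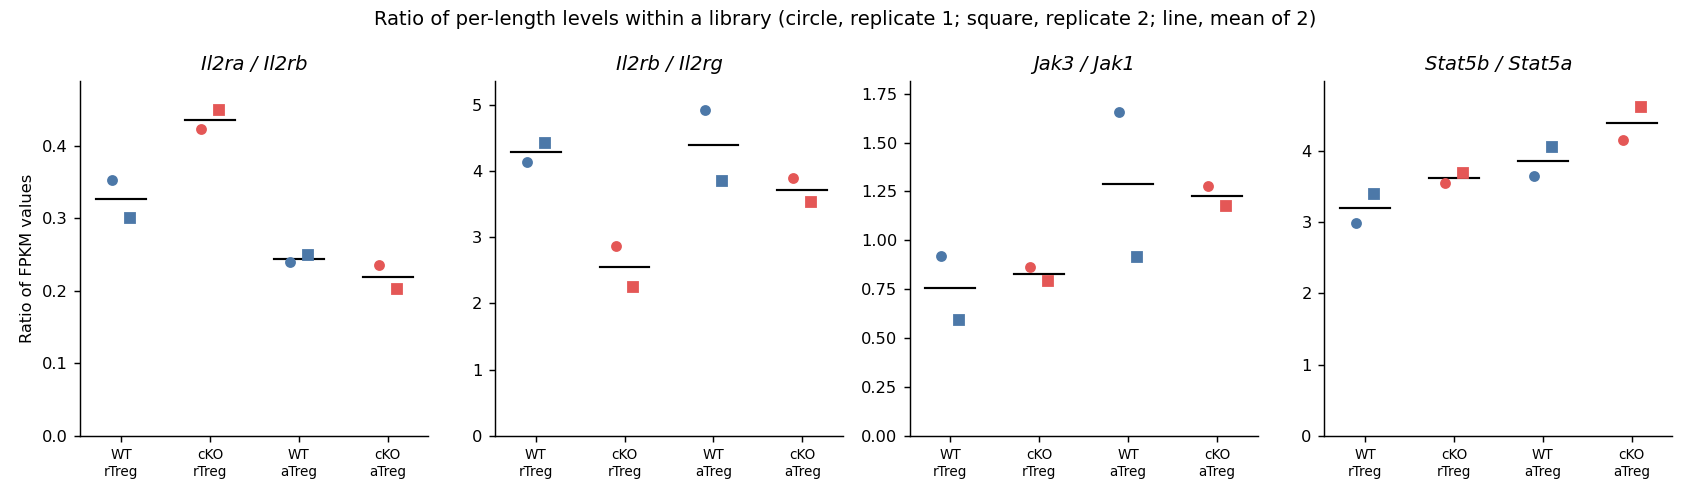
Ratios of FPKM values (y axis, from 0) within each library for Il2ra to Il2rb, Il2rb to Il2rg, Jak3 to Jak1 and Stat5b to Stat5a in the 4 groups (x axis), with a circle for replicate 1, a square for replicate 2 and a line for the mean of 2. The Il2ra to Il2rb ratio averages 0.327 in WT rTreg, 0.436 in cKO rTreg, 0.244 in WT aTreg and 0.219 in cKO aTreg libraries, and Jak3 to Jak1 differs widely between the 2 WT aTreg libraries.

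Jak1, the kinase bound to the beta chain, was lower in aTreg cells. It measured 971.0 and 1140.2 CPM in WT rTreg, 895.4 and 958.9 in cKO rTreg, 738.0 and 888.9 in WT aTreg, and 728.8 and 802.7 in cKO aTreg cells, so within each genotype and replicate the aTreg library was the lower. The log2 difference was -0.38 in WT cells (SE 0.0547, adjusted p = 0.0016) and -0.28 in cKO cells (SE 0.0547, adjusted p = 0.00525). The cKO call was lost without cKO rTreg replicate 1 (-0.21, adjusted p = 0.0775). Between genotypes Jak1 was -0.18 in rTreg cells (95% interval -0.31 to -0.06, adjusted p = 0.0699) and -0.08 in aTreg cells (-0.21 to 0.04, adjusted p = 0.411).

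Jak3, the kinase bound to the gamma chain, passed the threshold in no comparison. Its values were 660.4 and 498.1 CPM in WT rTreg, 573.3 and 563.5 in cKO rTreg, 906.4 and 601.3 in WT aTreg, and 689.3 and 700.1 in cKO aTreg cells. The WT pairs were far apart, with replicate 2 lower by 0.41 in rTreg and by 0.59 in aTreg cells on the log2 scale. Each aTreg library exceeded the rTreg library of its own replicate and genotype, and the fitted subset differences were 0.37 in WT cells (95% interval 0.05 to 0.69, adjusted p = 0.0781) and 0.29 in cKO cells (-0.03 to 0.61, adjusted p = 0.135). The genotype intervals ran from -0.33 to 0.31 in rTreg cells and from -0.41 to 0.23 in aTreg cells. Within libraries the FPKM ratio of Jak3 to Jak1 averaged 0.754 ± 0.232 in WT rTreg and 0.829 ± 0.0502 in cKO rTreg cells, and 1.29 ± 0.527 and 1.23 ± 0.0703 in WT and cKO aTreg cells (SD, n = 2).

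Stat5b was the gene of the 10 with the smallest adjusted p for genotype. It was 477.1 and 473.5 CPM in WT rTreg, 613.8 and 618.5 in cKO rTreg, 457.3 and 447.4 in WT aTreg, and 512.3 and 539.7 in cKO aTreg cells. All 4 cKO libraries lay above all 4 WT libraries. The rTreg difference was 0.37 on the log2 scale (SE 0.051, adjusted p = 0.00492), a level 1.30-fold higher, with pair differences of 0.36 and 0.39. It kept its size without WT rTreg replicate 2 (0.35, adjusted p = 0.0618) and without cKO rTreg replicate 2 (0.37, adjusted p = 0.069), though the call was lost in both. In aTreg cells the difference was 0.22 (SE 0.0509, adjusted p = 0.0466, 1.16-fold), and leaving out any of the 8 libraries took the adjusted p above the threshold, from 0.0764 without WT rTreg replicate 1 to 0.304 without cKO aTreg replicate 2, with log2 values of 0.17 to 0.26. By subset Stat5b was lower in cKO aTreg cells (log2 -0.23, SE 0.0509, adjusted p = 0.00908), a call lost without cKO rTreg replicates 1 or 2 (0.0715 and 0.068) or cKO aTreg replicate 1 (0.0752). In WT cells it differed by -0.07 (95% interval -0.19 to 0.05, adjusted p = 0.328).

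Stat5a, the less abundant of the pair per length, was lower in aTreg than in rTreg cells. It measured 205.1 and 179.7 CPM in WT rTreg, 222.7 and 216.0 in cKO rTreg, 161.3 and 142.0 in WT aTreg, and 158.8 and 150.4 in cKO aTreg cells, and all 4 aTreg libraries were below all 4 rTreg libraries. The log2 difference was -0.34 in WT cells (SE 0.0633, adjusted p = 0.005), lost without WT rTreg replicate 1 (-0.29, adjusted p = 0.0643), and -0.51 in cKO cells (SE 0.0634, adjusted p = 0.00057). The genotype difference was 0.19 in rTreg cells (95% interval 0.05 to 0.34, adjusted p = 0.0901) and 0.03 in aTreg cells (-0.12 to 0.18, adjusted p = 0.826). The FPKM ratio of Stat5b to Stat5a averaged 3.19 ± 0.282, 3.62 ± 0.0971, 3.85 ± 0.287 and 4.39 ± 0.33 in WT rTreg, cKO rTreg, WT aTreg and cKO aTreg cells (SD, n = 2).

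Socs3, a feedback inhibitor best known for binding the gp130 receptor, had the largest subset difference of the 10 genes. It was 377.6 and 333.9 CPM in WT rTreg, 496.6 and 423.5 in cKO rTreg, 260.6 and 240.0 in WT aTreg, and 313.3 and 243.2 in cKO aTreg cells. The cKO rTreg libraries were the highest and every aTreg library lay below every rTreg library. The subset difference was -0.50 in WT cells (SE 0.0685, adjusted p = 0.00117), or 1.42-fold lower, and -0.73 in cKO cells (SE 0.0686, adjusted p = 0.000138), or 1.66-fold lower. Between genotypes Socs3 was higher in rTreg cells (log2 0.37, SE 0.0682, adjusted p = 0.0155, 1.29-fold), with pair differences of 0.39 and 0.34. This call was lost without any of the 4 rTreg libraries, at adjusted p = 0.122 and 0.0982 without WT replicates 1 and 2 and at 0.103 and 0.129 without cKO replicates 1 and 2, while the log2 value stayed between 0.33 and 0.39. In aTreg cells the genotypes overlapped (log2 0.14, 95% interval -0.02 to 0.30, adjusted p = 0.259).

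Cish and Socs1, the other feedback inhibitors, were called in no comparison. Cish was 119.9 and 130.3 CPM in WT rTreg, 139.3 and 145.4 in cKO rTreg, 151.6 and 125.7 in WT aTreg, and 158.9 and 148.9 in cKO aTreg cells. Its 4 fitted differences were all above 0, at 0.19 for genotype in rTreg cells (95% interval -0.04 to 0.41), 0.15 in aTreg cells (-0.07 to 0.37), 0.14 for subset in WT cells (-0.08 to 0.36) and 0.11 in cKO cells (-0.11 to 0.33). Socs1 was 106.8 and 111.2 CPM in WT rTreg, 104.9 and 132.2 in cKO rTreg, 104.7 and 90.1 in WT aTreg, and 92.6 and 119.5 in cKO aTreg cells. Its cKO replicates were further apart than its group means, and its intervals ran from -0.19 to 0.43 for genotype in rTreg cells, -0.19 to 0.42 in aTreg cells, -0.47 to 0.15 for subset in WT cells and -0.47 to 0.14 in cKO cells. The rTreg genotype differences of Stat5b and Socs3 (both 0.37) lie inside the interval of Socs1 for that comparison.

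Whether the genotype effect differed between subsets was tested as an interaction. With edgeR, 0 of the 10 genes were called at this depth and replication, against 0.33% (48) of all genes tested, and DESeq2 and limma-voom also called 0. At an unadjusted p under 0.05 there were 3. These were Il2ra (log2 -0.21, 95% interval -0.41 to -0.0064, adjusted p = 0.375), Il2rb (0.37, 0.0031 to 0.75, adjusted p = 0.385) and Socs3 (-0.23, -0.45 to -0.0021, adjusted p = 0.385). The Il2rb difference was seen in replicate pair 2 (0.76), with -0.02 in pair 1. The calls for Il2rb, Il2rg and Socs3 in rTreg cells only, and for Il2ra in aTreg cells only, are therefore not shown to differ between the subsets.

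The other genes of the pathway were grouped by role. The counts of called genes in each list stand against the same shares of all genes tested, which were 6.57% higher and 5.45% lower for genotype in rTreg cells, 4.11% and 2.77% in aTreg cells, 18.2% and 13.6% for subset in WT cells, and 21.9% and 18.2% in cKO cells. Among the ligands of common gamma chain receptors, Il2 itself had at most 3 reads in every library (0, 0, 0 and 0 in rTreg and 1, 3, 3 and 3 in aTreg libraries) and was not tested. Il15 had 0 to 5 reads. Il4, a helper T cell cytokine, had 2, 5, 0 and 2 reads in the rTreg libraries and 19, 30, 29 and 21 in the aTreg libraries, and was called higher in aTreg cells of both genotypes (adjusted p = 0.00804 in WT and 0.00299 in cKO cells). Il21, made by follicular helper T cells among others, had 0, 0, 2 and 1 reads in rTreg and 16, 14, 12 and 69 in aTreg libraries (adjusted p = 0.0435 and 0.0232). Il7 had 0 reads in all rTreg libraries and 6, 3, 12 and 20 in aTreg libraries, called in cKO cells only (adjusted p = 0.014, WT 0.0787). The interaction test did not call Il7, so its subset change is not shown to differ between genotypes. Between genotypes 0 of these 3 tested cytokines were called in either subset by edgeR, limma-voom or DESeq2, with 0 in rTreg and 1 in aTreg cells at an unadjusted p under 0.05.

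The partner chains pair with the gamma or beta chain in sister receptors. Il4ra, the alpha chain of the IL-4 receptor, was 390.2 and 385.9 CPM in WT rTreg and 625.2 and 630.9 in cKO rTreg cells (log2 0.69, SE 0.089, adjusted p = 0.00395). It was 187.8 and 239.4 CPM in WT aTreg and 226.5 and 236.3 in cKO aTreg cells, lower than in rTreg cells by 1.82-fold in WT (adjusted p = 0.00032) and 2.71-fold in cKO cells (adjusted p = 2.22e-05). Il21r was also higher in cKO rTreg cells (log2 0.37, adjusted p = 0.0123). Il9r, the IL-9 receptor alpha chain, was 0.461 to 1.16 CPM in rTreg libraries (3 to 16 reads) and 46.3 to 70.1 CPM in aTreg libraries (adjusted p = 6.77e-06 in WT and 4.49e-06 in cKO cells). Il7r and Il15ra were higher in aTreg than in rTreg cells of both genotypes. On the log2 scale Il7r differed by 0.63 and 1.32 and Il15ra by 0.56 and 0.79 in WT and cKO cells. In WT cells the Il7r groups overlapped, at 151.4 and 323.7 CPM in rTreg and 248.1 and 476.9 CPM in aTreg cells, though both replicate pairs rose. Il7r also stands in the list of genes repressed by IL-2 and STAT5 below. Of the 5 partner chains, 2 were higher and 0 lower for genotype in rTreg cells, 0 changed in aTreg cells (also 0 with limma-voom and DESeq2, and 0 at an unadjusted p under 0.05), 3 were higher and 1 lower for subset in WT cells (18.2% and 13.6% over all genes), and 3 were higher and 2 lower in cKO cells (21.9% and 18.2%). Their medians were 0.25, 0.17, 0.56 and 0.79.

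Of the 7 other JAKs and STATs, 0 were called for genotype in either subset, by edgeR, limma-voom or DESeq2, with 2 in each subset at an unadjusted p under 0.05. Jak2 and Tyk2, kinases of other cytokine receptors, were higher in aTreg than in rTreg cells, where Jak1 was lower. They differed by 0.45 and 0.39 in WT cells (adjusted p = 0.00154 and 0.00729) and by 0.61 and 0.60 in cKO cells. In cKO aTreg cells Stat4, the IL-12 responsive factor, was also higher than in rTreg cells (0.70, adjusted p = 0.000346) and Stat6, the IL-4 responsive factor, lower (-0.22, adjusted p = 0.0194). Their medians over the 4 comparisons were -0.05, 0.15, 0.24 and 0.07.

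The 23 genes of the adaptor, Ras and PI3 kinase branch moved in both directions. For genotype 1 rose and 3 fell in rTreg cells, namely Map2k1 (0.38), Mapk3 (-0.48), Sos2 (-0.37) and Pik3r1 (-0.31), and in aTreg cells 1 rose, Map2k2 (0.33), and 1 fell, Pik3cd (-0.23). For subset 2 rose and 6 fell in WT cells (18.2% and 13.6% over all genes) and 7 rose and 5 fell in cKO cells (21.9% and 18.2% over all genes), and nothing is read from these counts. Syk had the largest change, from 5.34 and 8.56 CPM in WT rTreg to 0.329 and 1.03 in WT aTreg cells (log2 -3.20, adjusted p = 0.00372). Pik3cd, the catalytic PI3 kinase subunit of leukocytes, fell in both genotypes (log2 -0.60 and -0.80, adjusted p = 8.97e-05 and 1.77e-05), and Pik3r1 also fell in WT cells (-0.47, adjusted p = 0.00139). Mapk3 (0.68) and Sos2 (0.63) followed Syk (-3.05) and Pik3cd in cKO cells. The list medians were 0.05, 0.05, 0.02 and -0.01.

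Among 17 other negative regulators, Cblb, a ubiquitin ligase that restrains T cell activation, was the only call for genotype in rTreg cells (log2 -0.38, adjusted p = 0.013), and 0 were called in aTreg cells (4 at an unadjusted p under 0.05, 0 with limma-voom and 1 with DESeq2). For subset 4 rose and 5 fell in WT cells and 4 rose and 3 fell in cKO cells, of which nothing is read beside 18.2% and 13.6% of all genes in WT and 21.9% and 18.2% in cKO cells. Pias3, an inhibitor of STAT factors, rose 2.14-fold in WT aTreg cells, from 20.4 and 24.5 CPM to 47.3 and 48.8 CPM (log2 1.10, adjusted p = 0.000164), and rose by 1.38 in cKO cells. Ptpn11, the phosphatase SHP-2, rose in both genotypes (0.63 and 0.46), Socs7 too (0.26 and 0.36), and Socs5 in WT cells (0.91, against 0.33 with adjusted p = 0.0575 in cKO cells). Ptpn6, the phosphatase SHP-1, fell in both (-0.25 and -0.32), and Cblb fell in WT cells (-0.40, against -0.03 with adjusted p = 0.777 in cKO cells). The interaction test called 0 of the 17, so the subset changes of Socs5 and Cblb are not shown to differ between genotypes. The medians were -0.10, -0.04, -0.02 and 0.03.

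The 24 genes listed as induced by IL-2 and STAT5 held the largest called genotype differences of these lists. In rTreg cells 4 rose and 1 fell, where 6.57% and 5.45% of all genes did. Ecm1, which encodes an extracellular matrix protein, was 259.6 and 224.4 CPM in WT and 913.9 and 762.5 CPM in cKO rTreg cells (log2 1.79, SE 0.0892, adjusted p = 6.48e-05), and 92.7 and 65.1 against 133.9 and 123.1 CPM in aTreg cells (0.72, adjusted p = 0.00555). Lif, a cytokine of the IL-6 family, was 15.1 and 4.09 CPM in WT and 47.8 and 25.9 CPM in cKO rTreg cells (log2 2.10, SE 0.208, adjusted p = 0.00145). Lta, lymphotoxin alpha, rose by 0.76 (adjusted p = 0.00745) and Xbp1, a factor of the unfolded protein response, by 0.29 (adjusted p = 0.0323). Foxp3, the lineage factor whose upkeep needs IL-2, was 491.8 and 645.5 CPM in WT rTreg and 429.2 and 480.1 CPM in cKO rTreg cells. Its log2 difference was -0.32 in rTreg cells (adjusted p = 0.0496) and 0.02 in aTreg cells (adjusted p = 0.93). The WT rTreg replicates differed by 0.39 on the log2 scale. By the interaction test of edgeR the Foxp3 genotype effect is not shown to differ between subsets (0.33, adjusted p = 0.289). The genes that rose thus encode a matrix protein, 2 cytokines and a transcription factor, while Foxp3 moved the other way.

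For genotype in aTreg cells the same list had 2 genes higher in cKO cells, Ecm1 and Prdm1 (0.65, adjusted p = 0.0277), and 3 lower, namely Tfrc, the transferrin receptor (-0.48, adjusted p = 0.0168), Bcl2, a survival factor (-0.33, adjusted p = 0.0352), and Ccnd2, a cyclin (-0.24, adjusted p = 0.0304). Between subsets 9 rose and 7 fell in WT cells, where 18.2% and 13.6% of all genes did, and 9 rose and 12 fell in cKO cells, where 21.9% and 18.2% did. The largest were effector genes at or near the floor in rTreg cells. Gzmb, granzyme B, had 4, 4, 1 and 4 reads in rTreg libraries and 71, 188, 197 and 200 in aTreg libraries. Tnfrsf8 had 10, 2, 3 and 12 against 437, 428, 622 and 420 reads, and Tbx21, encoding T-bet, 6, 11, 4 and 18 against 169, 221, 260 and 419. Prdm1, encoding Blimp-1, rose 5.56-fold in WT and 8.52-fold in cKO cells (adjusted p = 3.33e-05 and 8.88e-06). The list medians were 0.07, 0.03, -0.01 and -0.31, and called members were found in both directions in all 4 comparisons.

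The 5 genes listed as repressed by IL-2 and STAT5 were led by Il6st, which encodes the gp130 receptor chain. Il6st was lower in cKO cells of both subsets, at 588.8 and 560.0 CPM in WT against 405.3 and 337.8 in cKO rTreg cells (log2 -0.64, SE 0.0741, adjusted p = 0.00283), and at 428.6 and 354.8 against 181.3 and 140.2 in aTreg cells (-1.29, SE 0.0754, adjusted p = 0.000323). Il6ra, the IL-6 receptor alpha chain, was lower in cKO aTreg cells (-0.56, adjusted p = 0.0159). All 5 genes were called between subsets in both genotypes, against 18.2% of all genes higher and 13.6% lower in WT and 21.9% and 18.2% in cKO cells, with Bcl6 (1.15 and 1.11) and Il7r higher and Il6ra (-0.85 and -1.20), Il6st (-0.56 and -1.21) and Tcf7 (-0.30 and -0.67) lower in aTreg cells of WT and cKO mice. The medians were -0.21, -0.06, -0.30 and -0.67.

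**Figure D4:**
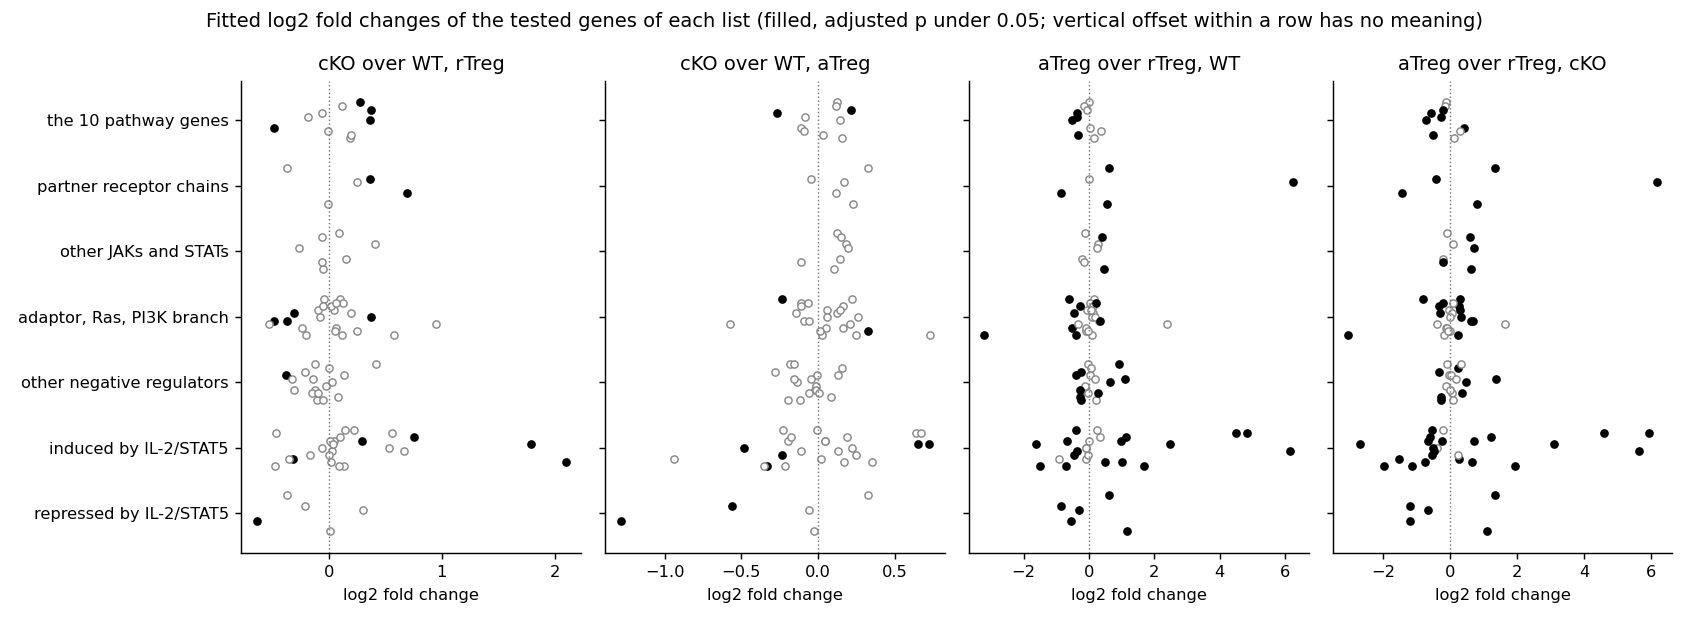
Fitted log2 fold changes (x axis, one scale per panel) of the 10 pathway genes and every tested gene of the other lists except the cytokines (rows) in the 4 comparisons, filled where the adjusted p is under 0.05. The 10 pathway genes lie within 0.73 of 0 in every panel, while Ecm1 at 1.79 and Lif at 2.10 stand apart in the cKO over WT panel for rTreg cells.

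Across the 8 libraries the levels of some members followed each other, as a description over libraries that share groups and replicate numbers. Pearson's r of log2 CPM was 0.97 for Il2rg and Stat5b, 0.96 for Stat5a and Socs3 and 0.83 for Il2ra and Stat5a. It was -0.80 for Il2rb and Stat5b and -0.83 for Jak1 and Jak3. Of all genes tested, the 5 whose levels were most like those of Il2ra were Gm14966 (r = 0.996, at 16 to 65 reads), Gm17032 (0.985, at 0 to 13 reads), Nmd3 (0.983), Emc1 (0.982) and Parn (0.982). Those most like Cish were Asb8 (0.961), Psmd11 (0.956), Gpatch2 (0.949), Rtca (0.94) and Dtnbp1 (0.938).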

How the data were processed

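RNA from sorted Treg cells was extracted with Trizol and made into libraries with a non-directional kit, so reads of overlapping genes on opposite strands cannot be told apart. Per the labels and the study's methods, the authors trimmed reads, removed duplicates, aligned them with HISAT2 2.0.5 to mm10 and counted them with HTSeq. The deposited table holds raw read counts per gene, and the deposited FPKM values were used for levels per length and ratios.

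Counts were tested with edgeR 4.0.16 in R 4.3.3 (TMM, filterByExpr with a minimum count of 10, quasi-likelihood test, replicate number as a block as in the study's paired analysis, all 8 libraries), adjusted over 14540 genes and called at an adjusted p under 0.05. Libraries with the same number deviated together (r of 0.389 to 0.632 over the group pairs). The r was 0.632 in WT and 0.589 in cKO cells between the subsets of a genotype, and 0.389 to 0.490 between genotypes. Whether both subsets of a replicate came from the same mice is not known here, and the fit has no term for it. The 4 libraries of a genotype may therefore not be independent. Replicates differed by more than counting noise (chi-square per degree of freedom 14.1 to 21.4). Alternatives included limma 3.58.1 (voom) and DESeq2 1.42.0. The fit was run on simulated data with planted changes larger than any called among the 10 genes. That run therefore does not check calls of their size. The 10 genes and the other lists were chosen with earlier results of these data known. From each list, up to 4 called genes with the largest change were named per comparison, plus genes at 3 reads or fewer in every library. Xbp1, Ccnd2, Tcf7, Stat6, Il15 and second values of named genes were added after their values were seen. Il9 was not analysed here, and some genes that the rule names are not reported here.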

Additional observations from a re-analysis of the deposited data

Results flagged for a closer look

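The genotype effect differed between aTreg and rTreg cells, by the interaction term of edgeR's quasi-likelihood test, for 2 of the named genes. For Foxp1, counted over the whole gene and not by exon, the difference was -0.92 on the log2 scale (adjusted p = 0.0477). It ranged from -1.09 to -0.75 over the alternatives, with adjusted p from 3.8e-06 to 0.295. It missed the threshold without either WT rTreg library (0.141 and 0.0941), either cKO rTreg library (0.177 and 0.269), WT aTreg replicate 2 (0.0986) or cKO aTreg replicate 2 (0.16).

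For Ecm1 the difference was -1.07 (adjusted p = 0.0271), with 0.423 as the adjusted p without the replicate block. It ran from -1.22 to -0.90 when 1 library was left out, and it missed the threshold without either WT rTreg library (0.0944 and 0.0895), either cKO rTreg library (0.135 and 0.22) or either cKO aTreg library (0.0611 and 0.113).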

How the results depend on the processing

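No called value of the 10 genes changed sign under any alternative. Counts are given as higher and lower. Without the replicate block the calls for genotype were 0 and 0 in either subset, 0 lower for subset in WT cells, and 0 and 3 in cKO cells. Without a filter on low counts there were 2 lower for genotype in rTreg cells, 1 higher for subset in WT cells, 2 higher in cKO cells and 1 higher in the interaction. With the libraries of each comparison alone there were 0 and 0 for genotype in aTreg cells, 1 higher for subset in WT cells and 2 in cKO cells. For genotype, FPKM plus 1 or plus 0.1 gave 0 lower (rTreg) and 0 either way (aTreg), and FPKM plus 1 without a filter also gave 0 higher in rTreg cells and 0 higher for subset in cKO cells. DESeq2 called 2 lower and robust dispersion 0 lower for genotype in rTreg cells. Median-of-ratios size factors gave 0 higher, and removing the gene length trend 0 lower, for genotype in aTreg cells.

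Leaving out 1 library gave 0 to 3 higher and 0 to 1 lower for genotype in rTreg cells, 0 higher and 0 to 1 lower in aTreg cells, 0 to 1 higher and 3 to 5 lower for subset in WT cells, 0 to 2 higher and 3 to 5 lower in cKO cells, and 0 and 0 in the interaction. The causes were not tested.

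Uncalled log2 values that crossed 0 were as follows. With the length trend removed, Il2rg was -0.013 for subset in WT cells and Jak3 was 0.011 for genotype in rTreg cells. The Socs1 interaction was 0.00083 without the replicate block, 0.011 with limma-voom and with DESeq2, 0.012 with median-of-ratios size factors, 0.027 without a filter, 0.0019 with FPKM plus 1 (with or without a filter), 0.0021 with FPKM plus 0.1 and 0.065 with the length trend removed. With 1 library left out, the subset difference in WT cells ran from -0.0095 to 0.29 for Cish, -0.13 to 0.23 for Il2rb, -0.032 to 0.062 for Il2rg and -0.40 to 0.068 for Socs1. The interaction ran from -0.18 to 0.13 for Cish, -0.30 to 0.17 for Jak3 and -0.23 to 0.24 for Socs1. The genotype difference in aTreg cells ran from -0.27 to 0.055 for Il2rb, -0.31 to 0.15 for Jak3, -0.12 to 0.36 for Socs1 and -0.011 to 0.074 for Stat5a, and in rTreg cells from -0.15 to 0.0089 for Il2ra, -0.17 to 0.13 for Jak3 and -0.022 to 0.24 for Socs1.

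Over all genes the main counts for genotype were 956 and 792 (rTreg) and 598 and 403 (aTreg), those for subset 2649 and 1982 (WT) and 3186 and 2642 (cKO), and 48 genes were called in the interaction. Without the block they were 181 and 119, 46 and 35, 1613 and 760, 2155 and 1327, and 0. FPKM plus 1 gave 419 and 395, and 92 and 73, for genotype, and 1106 lower for subset in WT cells. FPKM plus 0.1 gave 430 and 414, 62 and 61, and 1083 lower. FPKM plus 1 without a filter gave 100 and 83, 14 and 7, 1735 and 725, and 2638 and 1405. Without a filter on counts 1095 and 749 were called for genotype in aTreg cells and 1232 lower in rTreg cells, and with the libraries of the comparison alone 253 and 168 in aTreg cells. The interaction called 167 and 112 with DESeq2, 109 and 77 with robust dispersion, 359 and 214 without a filter and 2 and 0 with FPKM plus 1. Median-of-ratios size factors turned the rTreg genotype split to 831 and 834.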
